A study of Mus musculus with 6 samples.

Results

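Genes of the actin cytoskeleton and of its transcriptional control by MRTF and SRF were examined in splenic type-2 conventional dendritic cells (cDC2s) with and without Arhgef1. The 57 genes were taken by symbol from a list of actins, filament-binding proteins and SRF regulators, and all 57 were among the 14788 gene symbols of the count table. RNA was sequenced from 6 libraries of spleen cDC2s of C57BL/6 mice, of which 3 were wild type (WT) and 3 carried the genotype Arhgef1-/-. The labels do not say whether the deletion was limited to certain cells, which part of the gene was removed, how old the mice were, or whether a library came from 1 animal or a pool. P-values therefore measure the spread between these libraries, which may be technical. The libraries are written here as WT-1 to WT-3 and KO-1 to KO-3. By the sample labels the WT libraries were in 1 lane and the knockout libraries in another, so lane and genotype cannot be told apart.

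Actin exists as monomers and as filaments, and filament growth, branching, capping, cross-linking and disassembly each have their own proteins. Arhgef1 activates the small GTPase RhoA, which promotes filament assembly and myosin contraction. Monomeric actin holds the coactivators MRTF-A (Mkl1) and MRTF-B (Mkl2) away from the transcription factor SRF, and assembly of monomers into filaments releases them, so that SRF can transcribe actin and many of its binding partners. Dendritic cells use the same machinery to migrate, take up antigen and contact T cells.

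Levels are given in CPM, the count scaled to the size of its normalised library, and differences as log2 fold changes of knockout against WT with a standard error (SE). A gene is said to have risen or fallen where the Benjamini-Hochberg adjusted p of edgeR's quasi-likelihood test was under 0.05 over all 11504 tested genes. Total counts per library ran from 8408325 to 11714365. Arhgef1 itself was at 287, 317 and 246 CPM in WT and at 115, 128 and 144 CPM in the knockout, lower in every knockout library. Since the deleted part is not known, this level may include reads from outside it. All 11 cDC2 markers were detected, and their sum ranged over 12389 to 13759 CPM in WT libraries against 10421 to 11245 in knockout libraries. Of the 11, 5 fell (Cd209a by 1.59 on the log2 scale, Cd4 by 0.67, Clec4a4 by 0.40, Sirpa by 0.32 and H2-Ab1 by 0.30). Cd24a rose by 0.75, but KO-3 (46.2 CPM) lay below WT-1 (46.4 CPM) and it did not pass with limma-voom. Itgax, Irf4, Itgam, Flt3 and Zbtb46 did not pass. Of 9 smooth muscle, stromal and endothelial markers, Col1a1 had 0 counts in every library, and the others reached at most 6.31 CPM in any library (Tagln) except Pecam1, at 98.1 to 159 CPM. None of the 3 of these that could be tested passed with edgeR, DESeq2 or limma-voom. By edgeR 1 of the 3 was lower at an unadjusted p under 0.05, as were 1234 of all 11504 tested genes. Further marker groups differed between the genotypes. The sum of macrophage markers ranged over 810 to 1269 CPM in WT libraries against 297 to 465 in knockout libraries (14 of 17 fell). Of 4 tested monocyte markers 3 fell (Lyz2, Csf1r and Plac8), and the sum of that list ranged over 427 to 630 CPM against 273 to 363. The sum of cell cycle genes ranged over 2251 to 2684 CPM against 4610 to 5343 (26 of 28 rose). Malat1, a nuclear noncoding RNA, took between 3.66% and 4.43% of each WT library and between 2.21% and 2.67% of each knockout library. The part of these differences in the results on actin genes was not tested. In bulk RNA, fewer cells of a type and less RNA per cell cannot be told apart.

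The 57 genes, called actin genes here, were mostly higher in the knockout, by small amounts. They were chosen with earlier results of these data known, so their shares are a description. Of 37 tested actin-binding protein genes outside the list, 1 rose, 2 fell and the median log2 fold change was 0.12. The 57 genes together took 2.62%, 2.67% and 2.81% of the counts in WT-1 to WT-3, against 3.17%, 3.41% and 3.13% in KO-1 to KO-3. All knockout libraries thus lay above all WT libraries. Of the 55 genes that passed the filter on low counts, 22 rose, 2 fell and 31 did not pass the test. The share of all tested genes that passed was 9.67%, with 5.09% higher and 4.58% lower in the knockout, and 43.6% of the 55 passed. The median log2 fold change of the 55 was 0.24, beside 0.0003 over all tested genes. Of the 22 genes that rose, 16 rose by less than 1.5-fold, and the median of the 22 was 1.30-fold. In 38 of the 55 genes (34 higher and 4 lower in the knockout) the ranges of the genotypes were apart, as was so for 27.2% of all tested genes (13.7% higher and 13.5% lower). The test called 9 to 13 genes higher when WT-1 (11), WT-2 (11), WT-3 (13) or KO-2 (9) was left out, and the median then ran from 0.19 to 0.26.

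The genes are abundant, and abundance affects how small a change can be called. Among the 788 tested genes with an average above 8 log2 CPM, 10.7% were higher and 13.3% lower in the knockout. Of the 26 actin genes in that range 14 rose and 1 fell. Between 6 and 8 log2 CPM, 7.96% of 2363 genes were higher, and 5 of 18 actin genes rose.

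**Figure D1:**
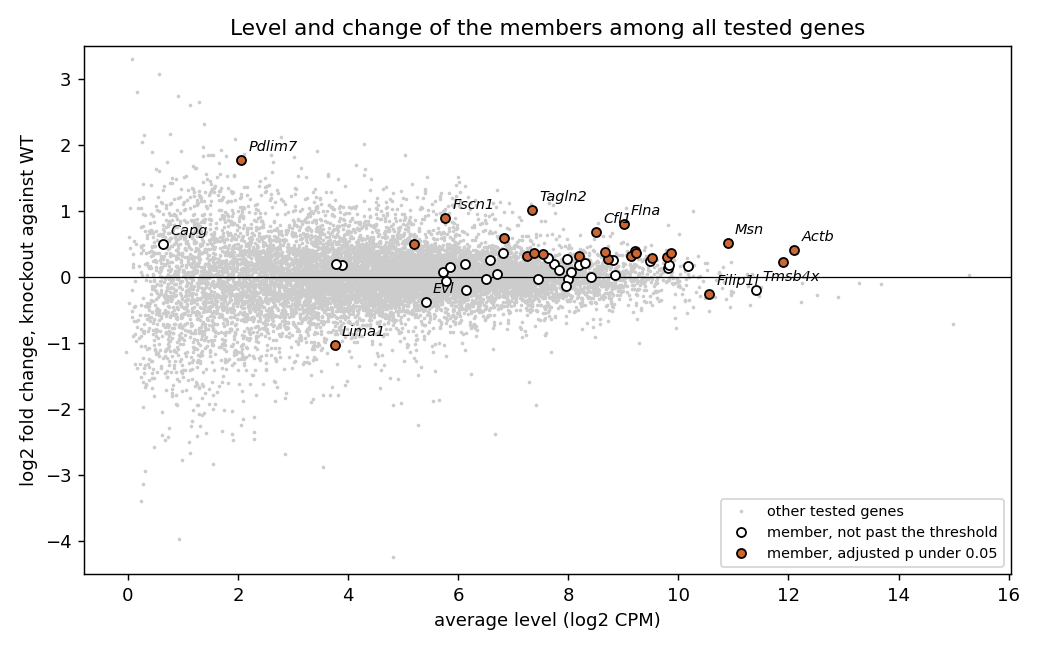
Average level (log2 CPM, horizontal) against the log2 fold change of knockout against WT (vertical) for each of the 11504 tested genes in grey and for the 55 tested actin genes as circles, filled where the adjusted p was under 0.05. The circles lie mostly in the right part of the cloud and above 0, with a median of 0.24.

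SRF binds a short element called the CArG box, which has a pair of C, a core of A and T, and a pair of G. It is its own reverse complement in form, so one search covers both strands. In the 250 bases before RefSeq gene starts (GRCm38.p6), an exact CArG box was found for 9 of the 53 genes with a listed promoter, or 17.0%, against 1.62% of the 27025 genes in the promoter table. The 9 genes were Actg1, Filip1l, Lima1, Cnn2, Myl6, Myl9, Arpc4, Vcl and Srf. The list was put together around actin and SRF, so the higher share may follow from the choice of genes. No promoter was listed for Actb, Lsp1, Cttn and Coro1b, so these were not searched. A GC box (GGGCGG or its reverse complement CCGCCC) was searched on both strands and can overlap a CArG box only at its end bases. It was found for 37 of the 53 genes, or 69.8%, against 35.4% of all genes in the promoter table. Many of those genes were not tested here, and the share among tested genes was not counted. Stretches of 6 of the 9 genes are shown here, the 3 whose RNA changed and had a box close to the start (Cnn2, Filip1l and Lima1) and 3 whose RNA did not pass the test (Srf, Actg1 and Vcl). They run 5′ to 3′ on the gene's strand, with each CArG box in capitals.
Cnn2, chr10:79988504-79988593, plus strand: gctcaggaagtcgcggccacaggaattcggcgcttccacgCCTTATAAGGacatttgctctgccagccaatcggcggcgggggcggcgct
Filip1l, chr16:57549140-57549229, plus strand: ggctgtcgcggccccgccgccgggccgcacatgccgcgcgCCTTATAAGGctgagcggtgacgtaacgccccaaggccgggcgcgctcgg
Lima1, chr15:99820150-99820236, minus strand: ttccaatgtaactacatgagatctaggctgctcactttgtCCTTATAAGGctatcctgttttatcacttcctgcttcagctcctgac
Srf, chr17:46556175-46556284, minus strand: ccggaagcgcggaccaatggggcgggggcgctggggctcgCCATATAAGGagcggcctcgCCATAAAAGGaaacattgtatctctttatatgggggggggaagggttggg
Actg1, chr11:120348536-120348625, minus strand: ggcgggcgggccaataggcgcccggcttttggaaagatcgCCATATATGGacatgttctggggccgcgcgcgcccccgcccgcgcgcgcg
Vcl, chr14:20929148-20929220, plus strand: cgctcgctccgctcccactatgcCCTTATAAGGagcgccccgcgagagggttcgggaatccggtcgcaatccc
Cnn2, Filip1l, Lima1 and Vcl share the same 10 letters, beginning 56, 62, 47 and 227 bases before the listed start, while Srf carries a pair of boxes with other cores, beginning 82 and 62 bases before the start. The starts listed for Filip1l and Lima1 lie inside the longer gene models.

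The same letters went with different RNA changes. Of the 8 tested genes with a box, Cnn2 and Arpc4 rose, Filip1l and Lima1 fell, and 4 did not pass the test, with a median log2 fold change of 0.19. Among the 44 genes with a listed promoter and no box in this window, 19 rose and 0 fell by the edgeR test. Their median was 0.27. Actb, which rose, had no listed promoter and is in neither group. Over all tested genes with a listed promoter, 110 of 8257 had a box, of which 8 were higher and 7 lower in the knockout, with a median of 0.06. A match describes the letters in this window and does not show that SRF bound there.

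The genes for actin itself are taken first. Counts by role can be set beside the 5.09% of all tested genes that rose and the 4.58% that fell. At an unadjusted p under 0.05 by edgeR, 1334 of the 11504 tested genes were higher and 1234 lower. Counts by role at that threshold are to be read beside these numbers. Actb (chromosome 5, positions 142903115 to 142906754, mm10), which encodes the main cytoplasmic actin, was at 3836, 3559 and 3957 CPM in WT and 4811, 5353 and 4948 CPM in the knockout. Every knockout library exceeded every WT library, and the log2 fold change was 0.41 ± 0.06 (SE, adjusted p = 0.000270). Actg1, which encodes the other cytoplasmic actin, was at 13.7 ± 1.33 and 15.5 ± 2.65 CPM (SD, n = 3 each), its groups overlapped, and it did not pass (0.18 ± 0.24). Per kilobase of the longest coding transcript, the WT level of Actb was 1971 CPM and that of Actg1 7.02 CPM. The level of Actg1 is uncertain, because 56.7% of the 50-base stretches of its transcript also occur in transcripts of other annotated genes, pseudogenes among them. Reads from such stretches can be split or dropped in counting. How much of the gap between Actb and Actg1 comes from this was not tested. For Actb this share was 14.2%.

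**Figure D2:**
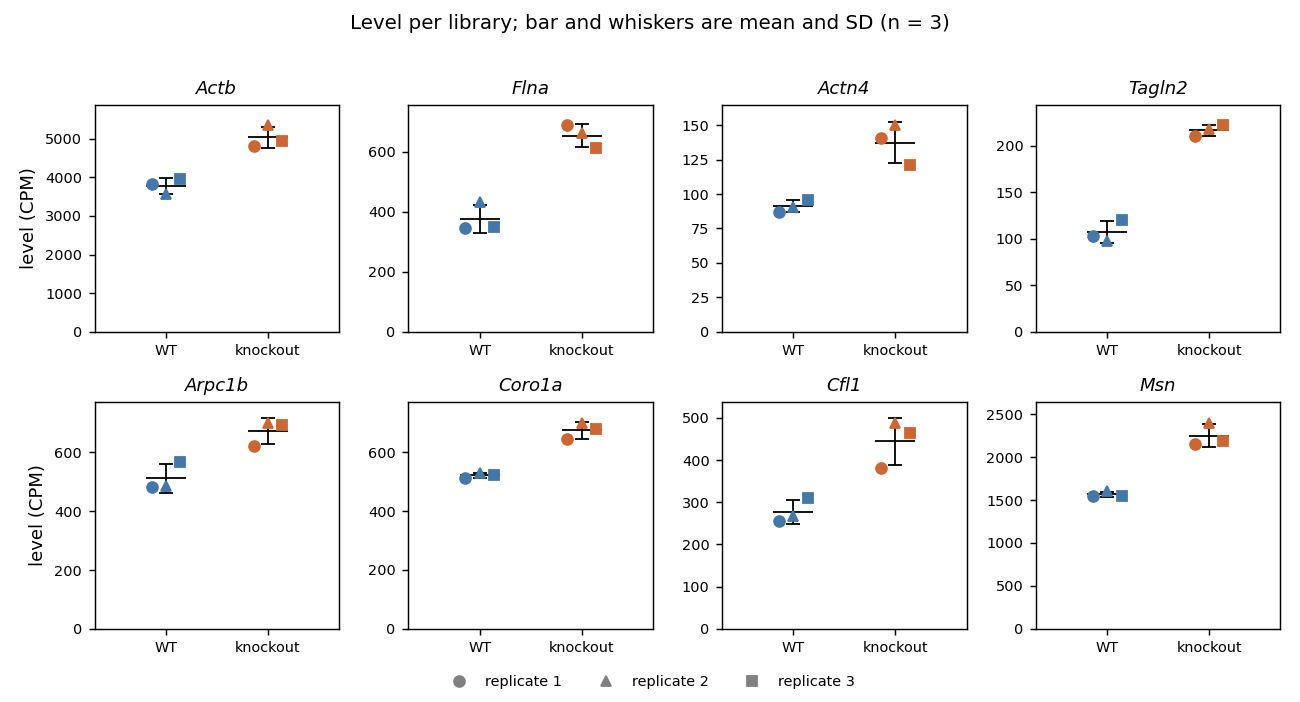
Level in CPM (vertical, from 0) in each library of the 8 actin genes that kept their call in every alternative that included them, with WT in blue, knockout in orange, replicate number as the symbol, and the mean ± SD of 3 libraries as a bar. In each panel all 3 knockout libraries lie above all 3 WT libraries, as for Actb with means of 3784 and 5038 CPM and Tagln2 with 107 and 217 CPM.

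RNA of the genes grouped here as cross-linkers and bundlers moved in both directions, with 4 of 9 genes up and 2 down. Flna (chromosome X, positions 74223461 to 74249820) encodes filamin A, which joins filaments into networks and ties them to membrane receptors. It was at 346, 431 and 350 CPM in WT and 688, 663 and 611 CPM in the knockout, so that every knockout library was far above every WT library (0.80 ± 0.09, adjusted p = 2.79e-05). Actn4 (chromosome 7, positions 28893248 to 28962340), an alpha-actinin that holds filaments in loose bundles, was at 87.3, 90.6 and 95.8 CPM in WT and 141, 150 and 121 CPM in the knockout (0.59 ± 0.11, adjusted p = 0.00240). Its relative Actn1 was at 102 ± 4.44 and 106 ± 12.4 CPM with overlapping groups and did not pass (0.05 ± 0.12).

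Lcp1, the leukocyte bundling protein L-plastin, was at 3407, 3474 and 3619 CPM in WT and 4033, 4257 and 4020 CPM in the knockout (0.23 ± 0.06, adjusted p = 0.0164). Fscn1, or fascin, which packs filaments into tight bundles and is a marker of mature dendritic cells, was at 53.6, 29.7 and 30.2 CPM in WT and 91.0, 40.7 and 79.5 CPM in the knockout. KO-2 lay below WT-1, so the groups overlapped although the test was passed (0.89 ± 0.25, adjusted p = 0.0303). Fscn1 did not pass with DESeq2 (0.89) or limma-voom (0.84), nor without WT-2 (0.74), WT-3 (0.75), KO-1 (0.67) or KO-3 (0.79). Lcp1 did not pass without WT-1 (0.21), WT-2 (0.22) or KO-2 (0.20).

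The cross-linker group also held both genes that fell. Filip1l, a filamin-interacting protein gene, was at 1673, 1626 and 1647 CPM in WT and 1355, 1388 and 1389 CPM in the knockout. The spread within each genotype was small and the groups were apart (-0.26 ± 0.06, adjusted p = 0.0141), but the test was not passed without WT-1 (-0.25). Lima1, which encodes the filament stabiliser EPLIN, was at 22.1, 15.0 and 16.6 CPM in WT and 7.80, 6.21 and 12.2 CPM in the knockout, 0.488 of the WT level (-1.03 ± 0.29, adjusted p = 0.0297). It did not pass without WT-1 (-0.85), WT-3 (-1.08), KO-1 (-0.95) or KO-2 (-0.84). Lsp1 and Lasp1, both filament-binding proteins of leukocyte and membrane actin, were at 658 and 778 CPM and at 200 and 229 CPM and did not pass, although in each the knockout libraries lay above the WT libraries. Lsp1 (0.24 ± 0.08, adjusted p = 0.0565) passed with DESeq2 (0.24), limma-voom (0.24), total counts without TMM (0.27) and without KO-1 (0.29).

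Tropomyosins lie along the filament and set which other proteins can bind it, and the calponin family protein genes Cnn2 and Tagln2 encode further filament-binding proteins. Of these 5 genes 3 rose. Tagln2 (chromosome 1, positions 172500047 to 172507380), or transgelin-2, was at 103, 98.0 and 120 CPM in WT and 210, 218 and 222 CPM in the knockout, 2.03 times the WT level (1.02 ± 0.10, adjusted p = 7.77e-06). This was the smallest adjusted p among the 55 genes. Tpm4 was at 360, 334 and 361 CPM in WT and 401, 536 and 441 CPM in the knockout (0.39 ± 0.10, adjusted p = 0.0176), with KO-2 well above the others. Cnn2 was at 241, 263 and 280 CPM in WT and 315, 335 and 331 CPM in the knockout (0.33 ± 0.09, adjusted p = 0.0230).

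Tpm3 was higher in every knockout library, at 179 ± 4.44 and 220 ± 19.1 CPM, and did not pass (0.29 ± 0.09, adjusted p = 0.0558). It passed with DESeq2 (0.29), total counts without TMM (0.33) and the correction for GC content and length (0.30), and 62.4% of its 50-base stretches occur in other annotated genes. Tpm1 was lower in every knockout library, at 75.2 ± 1.63 and 65.8 ± 5.93 CPM, and did not pass (-0.19 ± 0.12). Tpm4 lost its call without WT-1 (0.40), WT-2 (0.35) or KO-2 (0.26). Cnn2 lost its own without WT-1 (0.27), WT-2 (0.33), KO-2 (0.30) or KO-3 (0.32).

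Non-muscle myosin II pulls on filaments downstream of RhoA, and none of its chains in the list passed the edgeR test (0 of 2 tested, 1 at an unadjusted p under 0.05, and 0 with DESeq2 or limma-voom). The heavy chain gene Myh9 was at 1017, 1142 and 1100 CPM in WT and 1231, 1218 and 1228 CPM in the knockout, higher in each knockout library but not past the test (0.17 ± 0.07, adjusted p = 0.132). The light chain gene Myl6 was at 12.5 ± 2.33 and 14.4 ± 1.73 CPM, with 18.5% of its 50-base stretches found in other annotated genes. Myl9 had 0 or 1 count per library and was not tested.

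**Figure D3:**
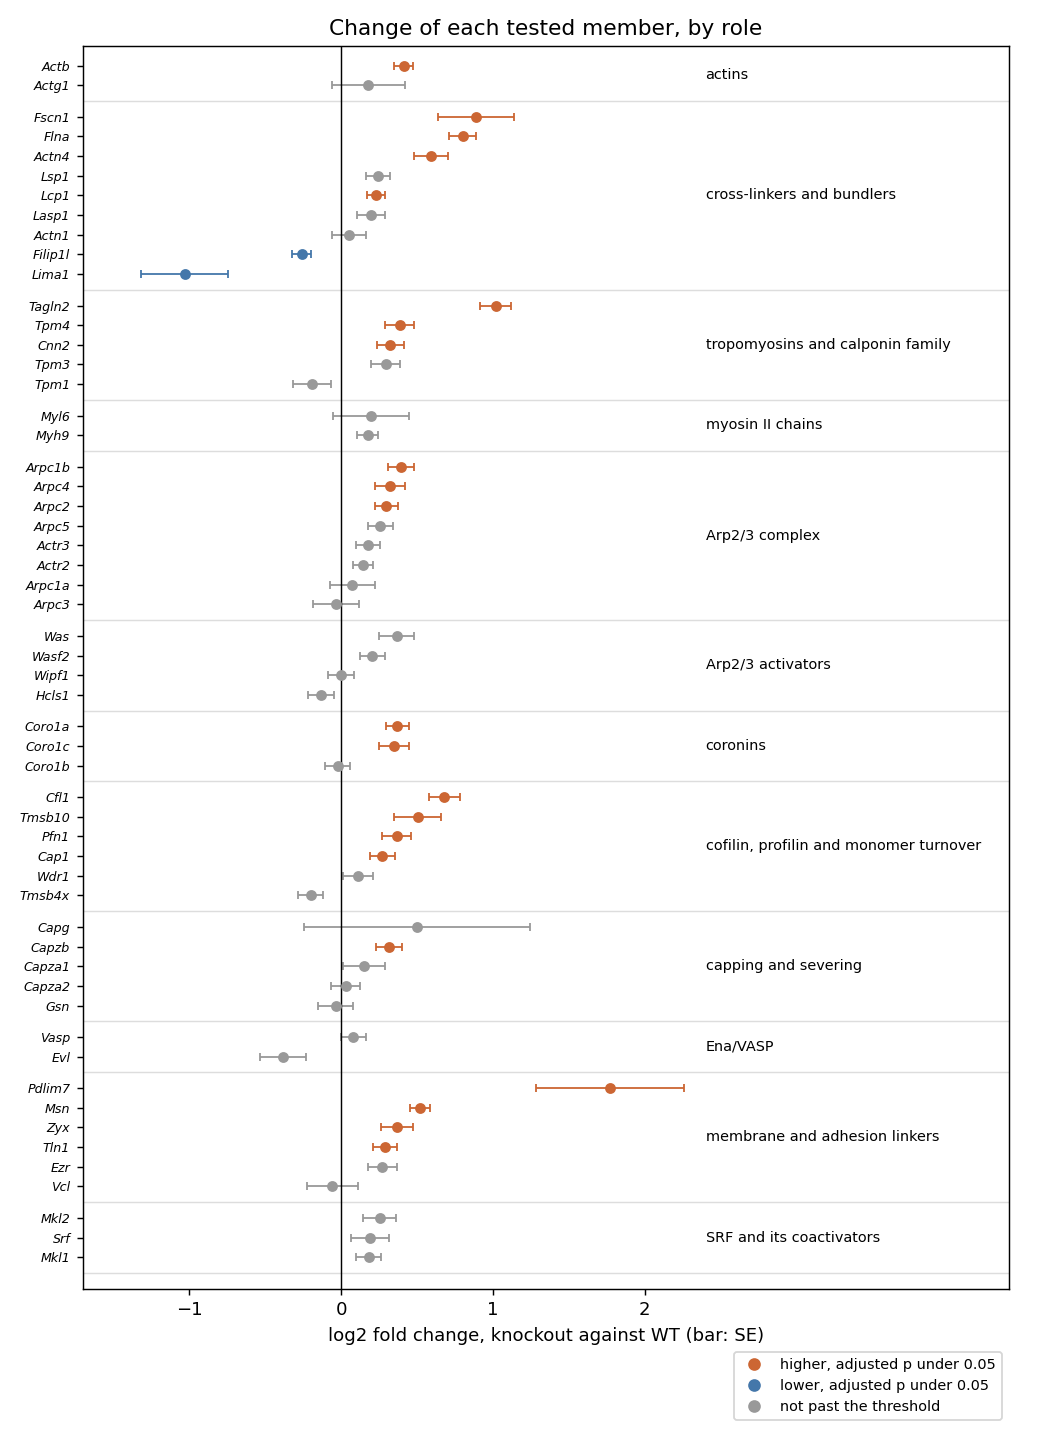
Log2 fold change of knockout against WT (horizontal, bar: SE) for each of the 55 tested actin genes, grouped by role and coloured by whether the gene rose, fell or did not pass the test. The 22 genes that rose are spread over 8 of the 12 roles, and both genes that fell (Filip1l and Lima1) are among the cross-linkers and bundlers.

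The Arp2/3 complex starts new filaments as branches on existing ones. It has a pair of actin-like subunits and 5 others. Of its 8 genes 3 rose, 0 fell and 6 had knockout values wholly above the WT values. Over all tested genes 5.09% rose and 13.7% had knockout values wholly above the WT values. Arpc1b (chromosome 5, positions 145114215 to 145130705), the subunit isoform typical of blood cells, was at 482, 486 and 568 CPM in WT and 623, 702 and 694 CPM in the knockout (0.39 ± 0.08, adjusted p = 0.00588). The exons of Arpc1b overlap those of Pdap1 on the opposite strand, over 18.2% of its exon bases, and without a stated strand setting reads from the overlap cannot be assigned. Arpc2, a core subunit, was at 837, 742 and 807 CPM in WT and 945, 1069 and 922 CPM in the knockout (0.30 ± 0.08, adjusted p = 0.0213). Arpc4 was at 147, 127 and 131 CPM in WT and 168, 177 and 162 CPM in the knockout, and passed narrowly (0.32 ± 0.10, adjusted p = 0.050, just under the threshold before rounding).

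Arpc4 also shares 12.2% of its exon bases with Ttll3 on the same strand. The other 5 Arp2/3 genes did not pass. The actin-like subunits Actr2 and Actr3 were at 858 and 948 CPM and at 852 and 964 CPM, and Arpc5 at 411 and 491 CPM, in each case with groups that did not overlap. In Actr3, 49.8% of the 50-base stretches occur in other annotated genes, both of them processed pseudogenes. Arpc1a was at 51.4 ± 7.54 and 54.2 ± 6.34 CPM and Arpc3 at 91.6 ± 22.5 and 89.5 ± 12.1 CPM, both with overlapping groups. Arpc4 lost its call in 13 of 18 alternatives, among them DESeq2 size factors (0.32), limma-voom (0.32), the replicate block (0.32) and each of the 6 fits that left out 1 library (0.28 to 0.39). Arpc2 lost its own without WT-2 (0.25), WT-3 (0.31) or KO-2 (0.23). Arpc5 (0.26 ± 0.08, adjusted p = 0.0587) passed with DESeq2 (0.26), total counts without TMM (0.29), the correction for GC content and length (0.25) and without KO-3 (0.31).

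Genes for proteins that switch on Arp2/3 did not pass the edgeR test (0 of 4 tested). Of these, 2 were at an unadjusted p under 0.05, 1 passed with DESeq2 and 0 with limma-voom. Was, the blood cell activator lost in Wiskott-Aldrich syndrome, was at 99.2, 102 and 93.7 CPM in WT and 110, 128 and 142 CPM in the knockout. Its groups did not overlap and its adjusted p was 0.0504 (0.37 ± 0.11). It passed with DESeq2 (0.37), without a filter (0.37), with 5 CPM required in 3 libraries (0.36), with total counts without TMM (0.40), with scaling that left out the 57 genes (0.37) and without KO-1 (0.46). Wasf2, or WAVE2, was at 293 and 338 CPM, Wipf1, which stabilises the Was protein, at 342 and 342 CPM, and the cortactin relative Hcls1 at 259 and 237 CPM. Cortactin itself (Cttn) had at most 13 counts in a library and was not tested.

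Coronins act with Arp2/3 and cofilin in filament turnover, and 2 of the 3 genes rose. Coro1a (chromosome 7, positions 126699773 to 126707787), the leukocyte coronin, was at 513, 528 and 523 CPM in WT and 644, 701 and 679 CPM in the knockout (0.37 ± 0.07, adjusted p = 0.00337). Coro1c was at 152, 182 and 158 CPM in WT and 209, 224 and 194 CPM in the knockout (0.35 ± 0.10, adjusted p = 0.0339). Coro1b was at 258 ± 4.46 and 254 ± 11.7 CPM with overlapping groups (-0.02 ± 0.09). Coro1c did not pass with upper-quartile scaling (0.32) or without WT-1 (0.30), WT-3 (0.32), KO-1 (0.35) or KO-2 (0.29).

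Cofilin severs old filaments, Wdr1 and Cap1 help it, profilin loads monomers for growth, and thymosins hold monomers in reserve. Of these 6 genes 4 rose. Cfl1 (chromosome 19, positions 5490455 to 5495201), or cofilin-1, was at 256, 267 and 310 CPM in WT and 382, 489 and 463 CPM in the knockout (0.68 ± 0.10, adjusted p = 0.000261). The exons of Cfl1 overlap those of Snx32 on the opposite strand, over 16.5% of its exon bases. Pfn1, or profilin-1, was at 898, 713 and 837 CPM in WT and 959, 1194 and 1000 CPM in the knockout (0.37 ± 0.09, adjusted p = 0.0188). Cap1 was at 363, 397 and 389 CPM in WT and 450, 487 and 451 CPM in the knockout (0.27 ± 0.08, adjusted p = 0.0381).

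The thymosin gene Tmsb10 was at 28.0, 29.4 and 32.8 CPM in WT and 38.9, 44.9 and 43.9 CPM in the knockout (0.50 ± 0.16, adjusted p = 0.0494). Tmsb4x had the highest level per kilobase of the 57 genes, at 3346 CPM in WT against 2916 in the knockout. Its library values were 2631, 2702 and 3339 CPM in WT and 2530, 2710 and 2317 CPM in the knockout, its groups overlapped, and it did not pass (-0.20 ± 0.08, adjusted p = 0.156). Wdr1 was at 218 and 236 CPM and did not pass. In Tmsb10, 43.5% of the 50-base stretches occur in other annotated genes.

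Of the genes that rose in this group, Cfl1 kept its call in all 18 alternatives. Pfn1 lost its call without WT-2 (0.28) or KO-2 (0.26). Cap1 lost its own in each fit without 1 library (0.23 to 0.30), with upper-quartile scaling (0.25) and with the replicate block (0.27). Tmsb10 lost its own without WT-1 (0.45), WT-2 (0.49), WT-3 (0.57), KO-2 (0.46) or KO-3 (0.48), with upper-quartile scaling (0.48), without a filter (0.51), without the 50 most abundant genes (0.50), with the replicate block (0.50) and with the correction for GC content and length (0.48).

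Capping protein, a dimer of an alpha and a beta chain, stops growth at the fast end of a filament, and 1 of 5 capping and severing genes rose. Capzb, the beta chain, was at 489, 464 and 564 CPM in WT and 584, 655 and 646 CPM in the knockout (0.31 ± 0.09, adjusted p = 0.0276). The alpha chain genes Capza1 and Capza2 were at 54.3 and 60.3 CPM and at 454 and 464 CPM and did not pass (0.15 ± 0.14 and 0.03 ± 0.10), and Capza1 shares 77.4% of its 50-base stretches with other annotated genes. Gelsolin (Gsn), which cuts and caps filaments, was at 176 and 171 CPM with overlapping groups. Capg, a capping relative of gelsolin, had 2 to 26 counts per library, too few for a narrow estimate (0.50 ± 0.74). Capzb did not pass without WT-1 (0.29), WT-2 (0.25), KO-2 (0.28) or KO-3 (0.30).

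Ena/VASP proteins keep filament ends growing. Neither of the pair passed the edgeR test, nor did either with DESeq2 or limma-voom (0 of 2, with 1 at an unadjusted p under 0.05). Evl was at 55.7, 43.8 and 44.1 CPM in WT and 38.5, 35.3 and 36.5 CPM in the knockout, lower in each knockout library (-0.38 ± 0.15, adjusted p = 0.136). Vasp was at 258 ± 4.25 and 273 ± 10.4 CPM (0.08 ± 0.08).

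Of the 6 genes for proteins that link filaments to the membrane or to integrin adhesions, 4 rose. Msn (chromosome X, positions 96096042 to 96168552), or moesin, the main leukocyte member of the ERM family that ties cortical actin to membrane proteins, was at 1546, 1602 and 1550 CPM in WT and 2158, 2404 and 2184 CPM in the knockout (0.52 ± 0.07, adjusted p = 5.81e-05). Its relative ezrin (Ezr) was at 229, 230 and 225 CPM in WT and 241, 306 and 278 CPM in the knockout, apart but not past the test (0.27 ± 0.10, adjusted p = 0.0840). Ezr passed with total counts without TMM (0.30) and without KO-1 (0.36). Talin (Tln1), which binds and activates integrins, was at 601, 714 and 661 CPM in WT and 778, 832 and 806 CPM in the knockout (0.29 ± 0.08, adjusted p = 0.0247).

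Among the adhesion proteins, zyxin (Zyx) was at 137, 159 and 140 CPM in WT and 196, 199 and 167 CPM in the knockout (0.37 ± 0.10, adjusted p = 0.0317). Pdlim7 had few reads, with 14, 19 and 15 counts in WT and 32, 65 and 89 in the knockout. It was at 1.77 ± 0.423 and 6.01 ± 2.03 CPM, the largest log2 fold change of the 55 genes (1.77 ± 0.49, adjusted p = 0.0280). Vinculin (Vcl) was at 55.8 ± 10.3 and 53.4 ± 10.8 CPM and did not pass (-0.06 ± 0.17). Exons of Vcl overlap those of Ap3m1 on the opposite strand over 25.5% of its exon bases.

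Msn kept its call in all 17 alternatives that included it. Tln1 lost its call without WT-1 (0.23), WT-3 (0.29), KO-2 (0.26) or KO-3 (0.29) and with the correction for GC content and length (0.23). Zyx lost its own without WT-1 (0.33), WT-3 (0.34), KO-1 (0.34) or KO-2 (0.32) and with that correction (0.33). Pdlim7 lost its own without WT-1 (1.60), WT-2 (1.95), WT-3 (1.78), KO-2 (1.68) or KO-3 (1.57).

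SRF and its coactivators did not pass the edgeR test, nor did any with DESeq2 or limma-voom (0 of 3). By edgeR 2 of the 3 were higher at an unadjusted p under 0.05, as were 1334 of all 11504 tested genes. Srf was at 61.2, 66.7 and 65.8 CPM in WT and 66.2, 75.7 and 79.1 CPM in the knockout, with overlapping groups (0.19 ± 0.13, adjusted p = 0.405). Mkl1 was at 274, 279 and 269 CPM in WT and 308, 302 and 323 CPM in the knockout (0.18 ± 0.08, adjusted p = 0.198). Mkl2 was at 91.2, 83.0 and 85.2 CPM in WT and 103, 97.2 and 109 CPM in the knockout (0.25 ± 0.11, adjusted p = 0.182). For both coactivators the knockout libraries lay above the WT libraries, but neither passed the test.

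Related genes were also set beside each other by the ratio of their counts within a library, where the scaling of the library cancels. The 12 pairs were chosen after the values were seen, so their ratios are a description. An exact test by relabelling the libraries gave p of 0.100 or more for each pair. With 3 libraries per genotype it can give no smaller p, so it cannot decide. The log2 ratio of Coro1b to Coro1a was -1.02 ± 0.03 in WT and -1.41 ± 0.03 in the knockout (SD, n = 3 each). That of Tmsb10 to Tmsb4x was -6.58 ± 0.08 and -5.89 ± 0.15, that of Actn4 to Actn1 was -0.16 ± 0.11 and 0.38 ± 0.24, and that of Tpm1 to Tpm4 was -2.22 ± 0.09 and -2.80 ± 0.30. The mean log2 ratio of knockout minus WT was 0.32 for Arpc1b to Arpc1a, 0.12 for Capza1 to Capza2, 0.45 for Vasp to Evl and -0.26 for Ezr to Msn. The ratio of Coro1c to Coro1a was -1.67 ± 0.12 and -1.69 ± 0.10, and that of Mkl1 to Mkl2 was 1.67 ± 0.08 and 1.59 ± 0.04, both with overlapping groups. Groups also overlapped for Actb to Actg1 (knockout minus WT 0.24) and for Tpm3 to Tpm4 (-0.09). Coro1b shares 20.8% of its 50-base stretches with Ptprcap, which overlaps it on the same strand.

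**Figure D4:**
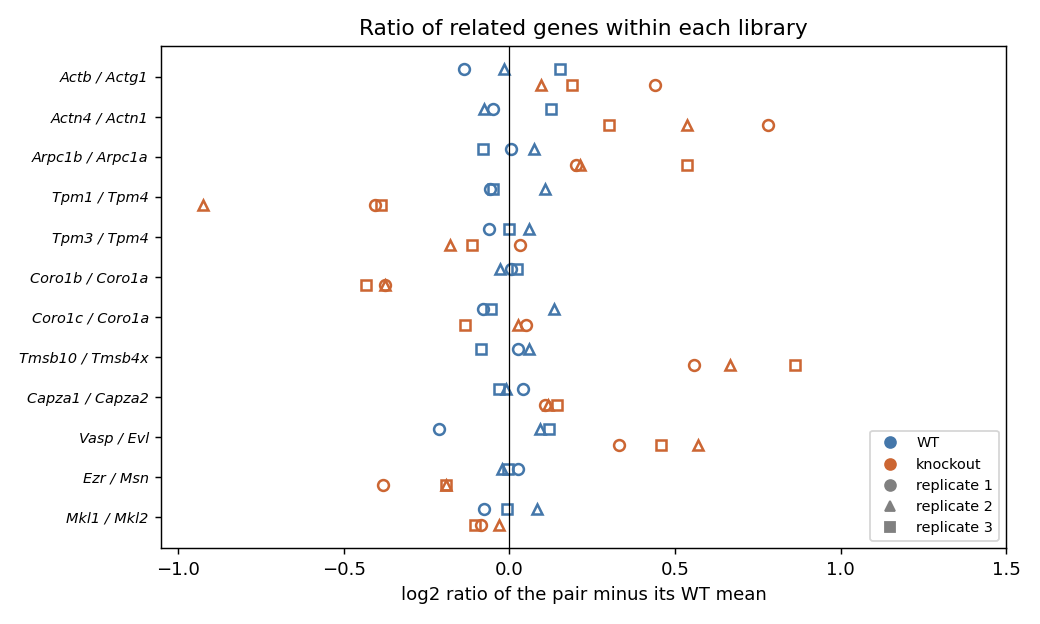
Log2 ratio of the counts of 12 pairs of related genes in each library, with the WT mean of the pair subtracted (horizontal), WT in blue, knockout in orange and the replicate number as the symbol. The knockout ratios of Coro1b to Coro1a lie about 0.39 below the WT mean with little spread, and those of Tmsb10 to Tmsb4x lie 0.70 above it on average.

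Genes upstream of and beside the 57 were counted from lists that share no gene with them. At an unadjusted p under 0.05 by edgeR, 1334 of the 11504 tested genes were higher and 1234 lower. Over all tested genes 5.09% rose and 4.58% fell, and each list below is to be read beside these shares. The lists of RhoA signalling, of Rac and Cdc42 signalling and of other actin-binding proteins were near them. Of 21 tested genes of RhoA signalling to actin, 1 rose, 1 fell and the median was 0.08. Arhgdia was at 571 ± 33.3 and 687 ± 31.9 CPM (0.27 ± 0.08, adjusted p = 0.0342), and Hmha1 (Arhgap45) fell from 411 ± 9.45 to 314 ± 23.7 CPM (-0.39 ± 0.08, adjusted p = 0.00623). Rhoa was at 180, 181 and 189 CPM in WT and 208, 221 and 186 CPM in the knockout and did not pass (0.16 ± 0.09). Arhgdib and Myl12a were at 776 and 903 CPM and at 79.2 and 102 CPM and did not pass. Arhgdia lost its call without WT-2 (0.25), WT-3 (0.24), KO-2 (0.23) or KO-3 (0.28), with upper-quartile scaling (0.24), the replicate block (0.27) and the correction for GC content and length (0.20). Arhgdib passed with total counts without TMM (0.25), that correction (0.25) and without KO-1 (0.28), and Myl12a without KO-3 (0.48).

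Of 20 genes of Rac and Cdc42 signalling to actin, 1 rose, 1 fell and the median was -0.09. Arhgap15, which turns Rac off, was at 176, 206 and 216 CPM in WT and 143, 139 and 139 CPM in the knockout (-0.51 ± 0.10, adjusted p = 0.00326). The Rac activator gene Tiam1 was at 14.0 ± 2.27 and 23.4 ± 3.68 CPM (0.74 ± 0.22, adjusted p = 0.0409). Rac1 was at 411 and 478 CPM and Wasl at 112 and 90.4 CPM, and neither passed, though Wasl did with DESeq2 (-0.31). Tiam1 lost its call with limma-voom (0.72), the replicate block (0.75) and without WT-1 (0.89), WT-2 (0.68), WT-3 (0.68), KO-1 (0.77) or KO-2 (0.61).

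Of 37 other actin-binding protein genes, 1 rose, 2 fell and the median was 0.12. Tpm2, a further tropomyosin gene, was at 8.91, 9.79 and 13.3 CPM in WT and 20.8, 17.2 and 27.7 CPM in the knockout (1.04 ± 0.25, adjusted p = 0.0140). The filament nucleator gene Spire1 fell from 191 ± 6.42 to 134 ± 14.8 CPM (-0.50 ± 0.10, adjusted p = 0.00390), and Marcks, which ties filaments to the membrane, from 923 ± 21.4 to 729 ± 45.0 CPM (-0.34 ± 0.07, adjusted p = 0.00584). Radixin (Rdx), the third ERM gene beside Ezr and Msn, was at 147 and 179 CPM and did not pass (0.28 ± 0.10, adjusted p = 0.0872). Tpm2 lost its call without WT-1 (0.93), WT-2 (0.98) or KO-3 (0.83).

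SRF has targets of both MRTF and the ternary complex factors, which answer to growth signals. Of 17 genes listed as further MRTF-SRF targets, 15 had a matching symbol and 9 were tested. Acta2, Ctgf, Cyr61, Fhl1, Fhl2 and Phldb2 had at most 13 counts in a library and were not tested. Of the 9 tested genes, 2 rose and 0 fell with edgeR or DESeq2 (1 lower at an unadjusted p under 0.05, and 0 lower with limma-voom). Their median was 0.15. Vim, the intermediate filament gene, was at 150, 132 and 156 CPM in WT and 283, 296 and 278 CPM in the knockout (0.97 ± 0.09, adjusted p = 6.96e-06), and the integrin chain gene Itga5 at 7.66, 5.07 and 4.72 CPM in WT and 10.8, 22.4 and 9.46 CPM in the knockout (1.28 ± 0.35, adjusted p = 0.0276). Thbs1 was above 3 CPM in WT-2 alone (16.4 CPM) and did not pass, and Tagln was at 2.58 and 4.52 CPM. Itga5 lost its call with limma-voom (1.16) and without WT-2 (1.19), WT-3 (1.15) or KO-2 (0.79), and Thbs1 passed without KO-1 (-4.20).

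Of 12 ternary complex factor genes and targets, 0 rose (1 at an unadjusted p under 0.05, and 0 with DESeq2 or limma-voom), 3 fell with edgeR and the median was 0.0049. Junb was at 83.7, 94.0 and 105 CPM in WT and 60.2, 56.8 and 70.9 CPM in the knockout (-0.59 ± 0.13, adjusted p = 0.00775), and the survival gene Mcl1 fell from 1248 ± 54.5 to 974 ± 52.4 CPM (-0.36 ± 0.07, adjusted p = 0.00326). Fosb was at 307 ± 10.1 and 239 ± 43.5 CPM (-0.36 ± 0.11, adjusted p = 0.0439), and Fos at 337 ± 55.0 and 270 ± 34.2 CPM did not pass. Junb lost its call without WT-3 (-0.50). Fosb lost its own with total counts without TMM (-0.33) and without WT-1 (-0.33), WT-2 (-0.38), WT-3 (-0.37), KO-1 (-0.24) or KO-2 (-0.34).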

How the data were processed

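The authors deposited a table of unnormalized whole-number counts for each symbol. STAR, HTSeq, DESeq2 and mm10 appear in the submitters' processing notes, whereas versions, annotation, strand setting and filters were not given in the sources used here. Counts were fitted with edgeR 4.0.16 (R 4.3.3) after filterByExpr, with TMM scaling (factors 0.977 to 1.02) and genotype as the only term, and adjusted over 11504 genes. The SE was derived from the log2 fold change and the F statistic. The fit was tested on simulated counts. Alternatives used other scalings and filters, DESeq2 1.42.0, limma-voom (limma 3.58.1), the replicate number as a block, and each library left out. A correction for GC content and length, and a fit without macrophage and cell cycle markers, were added after the data were seen.

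Lengths, positions and shared 50-base stretches came from GENCODE vM21 (mm10). Promoters came from RefSeq (GRCm38.p6), where 53 of the 57 genes matched. Of 291 list entries, 9 matched by an older symbol and 13 had no match. The genes and lists were chosen with earlier results of these data known. All 57 genes are described, and from each pathway list up to 4 genes with the smallest p are named, beside Arhgef1, Rhoa and Malat1. The 12 pairs of related genes were chosen after their values were seen.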

Additional observations from a re-analysis of the deposited data

How the results depend on the processing

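Of the 24 actin genes that rose or fell, 8 (Actb, Flna, Actn4, Tagln2, Arpc1b, Coro1a, Cfl1 and Msn) kept their call in each of the 18 alternatives that included them, 9 lost it only in fits without 1 library, and the direction of all 24 was the same in each alternative. The number of actin genes that rose was 18 to 27 under the 12 alternatives with all 6 libraries, and 9 to 20 in the fits without 1 library. The number that fell was 0 to 2 without 1 library, and 1 without the 50 most abundant genes, since Filip1l is among those left out. Over all tested genes, 310 to 583 were higher and 264 to 489 lower without 1 library. Libraries with the same replicate number did not deviate together (correlations 0.04, -0.03 and -0.03), so the numbers were not taken as pairs. The replicate block gave 19 genes that rose and 2 that fell. It ended the calls of Arpc4, Cap1 and Tmsb10 and changed no other call among the 57 genes. Total counts without TMM shifted the median of all tested genes by 0.03 and the median of the actin genes to 0.27. Shared sequence limits the levels of the 17 actin genes with at least 10% of their 50-base stretches in other annotated genes, most in Capza1 (77.4%), Tpm3 (62.4%), Actg1 (56.7%), Actr3 (49.8%), Tmsb10 (43.5%), Arpc1b (42.2%) and Vcl (39.2%), and few counts limit Myl9, Cttn, Capg and Pdlim7.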
